A study of Mus musculus with 12 samples.

Results

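The genes described here are 9 that are used to tell the layers of the cerebral cortex apart, namely *Fezf2*, *Bcl11b*, *Cux1*, *Cux2*, *Rorb*, *Foxp2*, *Sox5*, *Tle4* and *Pou3f2*. They were chosen by name, out of 21938 protein-coding genes of the mm10 annotation. Cortices of P2 *Gad67-GFP* heterozygous mice were pooled from several litters per sample and sorted into GFP+ cells, the cortical interneurons (CINs), and GFP- cells (non-CINs). GFP in this line sits at the *Gad1* locus and marks GABAergic cells, so that the GFP- fraction held every other cell of the cortex, neurons and glia together. Both populations carried the same allele, age and tissue, and differed only in the sort. H3K27ac and H3K27me3 were each measured by native ChIP-seq in 2 replicates of both populations, which gives 8 peak lists, 4 of each mark. The 4 input samples entered only through the authors' peak calling.

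Neurons of the cortex settle in layers according to the time at which they are born, and a small set of transcription factors is used both to specify these layers and to recognize them. *Fezf2* and *Bcl11b* (Ctip2) mark the deep layers that project below the cortex, *Sox5*, *Foxp2* and the corepressor gene *Tle4* mark deep-layer corticofugal neurons, *Rorb* marks layer IV, and *Cux1*, *Cux2* and *Pou3f2* (Brn2) mark the upper layers. Several of them also act outside the projection neurons, *Bcl11b* in GABAergic neurons and *Sox5* and *Pou3f2* in progenitors. H3K27ac is carried by active promoters and enhancers, whereas H3K27me3 is laid down by the Polycomb complex over genes that are held silent.

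Each gene was measured in a window from 5 kb upstream of its transcription start site (TSS, the outer end of the annotated gene) to the gene end. The values taken from each list were the number of peaks, the base pairs they covered and the fold percentile of the strongest peak, which is the share of peaks in the same list with a lower fold enrichment over input. A percentile is used because fold enrichment cannot be compared between lists directly. The number of reads behind the lists was not used here, so a missing peak means that none was called. In bulk chromatin, fewer cells carrying a mark and less mark per cell cannot be told apart. With 2 lists against 2, the smallest *p* that an exact test can give is 0.333, and therefore no test was made. A gene was counted as higher in one population where both of its lists lay above both lists of the other, and the same count over all genes with a peak of that mark is given as the background.

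H3K27ac peaks called in CINs or in non-CINs only were sought up to 100 kb beyond either end of the genes. A CIN-only or non-CIN-only region had to be absent from the matching replicate of the opposite population and present in both replicates of its own. The sequences of 9 such regions are given here, because they are stretches of the layer genes or of their flanks that were called in one population and not in the other. For each gene and population the region with the highest lower percentile of its 2 lists was taken, and a region next to the *Bcl11b* start was added after its values were seen. Each is the central 200 bp of its region in mm10, read 5′ to 3′ on the strand of its gene, with a match to any of 7 transcription factor cores in capitals. The cores, searched on both strands with overlaps allowed, were TAATTA (homeodomain), CTTTGT (SOX), CTGTCA (MEIS), CAGATG (an E-box of the NEUROD type), AGGTCA (ROR element), ATGCAAAT (octamer) and TGTTTAC (forkhead).
Bcl11b, CIN-only, next to the start, chr12:108003870-108004069: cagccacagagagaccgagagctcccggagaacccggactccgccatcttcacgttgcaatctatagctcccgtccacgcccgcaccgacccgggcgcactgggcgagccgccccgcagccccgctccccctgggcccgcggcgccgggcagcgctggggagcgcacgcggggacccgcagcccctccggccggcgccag
Bcl11b, CIN-only, intron 2, chr12:107976307-107976506: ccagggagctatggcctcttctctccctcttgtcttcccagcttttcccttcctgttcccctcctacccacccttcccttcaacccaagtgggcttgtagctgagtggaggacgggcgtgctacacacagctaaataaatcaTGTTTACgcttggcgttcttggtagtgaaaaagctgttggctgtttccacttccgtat
Foxp2, CIN-only, intron 5, chr6:15310804-15311003: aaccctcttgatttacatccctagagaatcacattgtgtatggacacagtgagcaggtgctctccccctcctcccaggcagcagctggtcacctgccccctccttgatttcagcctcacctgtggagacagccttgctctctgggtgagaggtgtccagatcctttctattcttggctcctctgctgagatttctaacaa
Foxp2, non-CIN-only, intron 5, chr6:15321682-15321881: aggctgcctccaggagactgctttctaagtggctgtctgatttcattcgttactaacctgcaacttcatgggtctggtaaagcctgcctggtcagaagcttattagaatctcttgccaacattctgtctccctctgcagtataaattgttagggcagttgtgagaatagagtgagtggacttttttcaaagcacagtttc
Cux1, CIN-only, intron 14, chr5:136297225-136297424: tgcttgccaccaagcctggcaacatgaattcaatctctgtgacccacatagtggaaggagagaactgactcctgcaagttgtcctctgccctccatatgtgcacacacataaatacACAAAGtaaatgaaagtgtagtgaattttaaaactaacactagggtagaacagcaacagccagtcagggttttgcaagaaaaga
Cux1, non-CIN-only, downstream, chr5:136226311-136226510: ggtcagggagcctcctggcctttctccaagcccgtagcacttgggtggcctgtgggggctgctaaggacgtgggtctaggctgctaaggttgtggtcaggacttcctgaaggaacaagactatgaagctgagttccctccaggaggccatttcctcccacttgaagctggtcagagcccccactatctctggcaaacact
Cux2, CIN-only, intron 5, chr5:121889367-121889566: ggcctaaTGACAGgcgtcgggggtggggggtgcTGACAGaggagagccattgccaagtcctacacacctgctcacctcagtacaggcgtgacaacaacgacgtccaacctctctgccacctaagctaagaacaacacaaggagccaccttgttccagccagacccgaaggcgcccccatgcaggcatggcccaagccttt
Rorb, non-CIN-only, downstream, chr19:18881103-18881302: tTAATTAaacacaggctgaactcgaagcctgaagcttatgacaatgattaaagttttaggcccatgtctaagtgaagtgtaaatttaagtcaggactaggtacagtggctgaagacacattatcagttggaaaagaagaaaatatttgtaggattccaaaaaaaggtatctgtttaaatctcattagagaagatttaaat
Sox5, CIN-only, before the coding start sites, chr6:144343483-144343682: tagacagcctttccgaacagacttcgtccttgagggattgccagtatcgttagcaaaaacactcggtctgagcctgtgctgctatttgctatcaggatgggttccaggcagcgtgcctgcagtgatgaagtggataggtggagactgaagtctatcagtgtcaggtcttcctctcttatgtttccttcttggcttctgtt
The forkhead core TGTTTAC stood in the *Bcl11b* intron region, the SOX core in the CIN-only *Cux1* region, the MEIS core at 2 places in the *Cux2* region and the homeodomain core in the *Rorb* region. None of the 7 cores was found in the region before the *Bcl11b* start, in either *Foxp2* region, in the non-CIN-only *Cux1* region or in the *Sox5* region. Across all 16 CIN-only regions of the layer genes, the SOX core was present in 5, the forkhead core in 3, the E-box in 3, and the homeodomain, MEIS and ROR cores in 2 each, with no octamer. In all 4181 CIN-only windows searched across the genome the shares were 27.4% for the SOX core, 3.54% for the forkhead core, 19.1% for the E-box, 10.9% for the homeodomain core, 19.2% for the MEIS core, 8.06% for the ROR core and 2.70% for the octamer. Of the 6 non-CIN-only regions, 2 held the homeodomain core and none any other, where 3.89% of the 2775 non-CIN-only windows held it. These are matches of letters, in few regions, and no more is read from them.

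The marker genes of the sorted populations were checked first. Of 10 GABAergic genes, 8 had more H3K27ac coverage in both CIN lists than in both non-CIN lists and 0 had less, with summed coverage of 72555 to 86937 bp in the CIN lists, against 15789 to 17041 bp for non-CINs. All 4 astrocyte genes were higher in non-CINs, with 42509 to 45701 bp in the CIN lists, against 68014 to 69602 bp for non-CINs, as were 2 of 3 microglial genes, with 11572 to 12878 bp against 15328 to 18169 bp. The glutamatergic genes did not separate the populations in H3K27ac. Of 6, *Slc17a6* was higher in CINs and *Emx1* in non-CINs, the sums were 3490 to 7310 bp and 4610 to 6407 bp, and *Slc17a7* and *Neurod2* had no H3K27ac peak in any of the 4 lists. In H3K27me3, *Neurod6* and *Emx1* were higher in CINs and 0 of the 6 in non-CINs, and the sums were 56019 and 62341 bp in the CIN lists, against 49949 and 54652 bp for non-CINs. Of the other markers, 1 of 4 oligodendrocyte genes was higher in each population and 0 of 3 endothelial genes in either. The part that glia in the GFP- fraction have in the results on layer genes was not tested. The H3K27ac lists held 46040 to 62505 peaks over 40.8 to 56.3 Mb and the H3K27me3 lists 36662 to 45081 peaks over 34.5 to 49.8 Mb.

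All 9 layer genes had H3K27ac peaks in all 4 lists, in CINs as well as in non-CINs, as did 12456 of the 21938 protein-coding genes. The part of window length in this count was not tested. *Bcl11b*, *Cux2* and *Foxp2* were more widely acetylated in CINs, *Fezf2* and *Rorb* were more widely acetylated in non-CINs, and the lists overlapped for *Cux1*, *Sox5*, *Tle4* and *Pou3f2*. The 3 of 9 higher in CINs stand beside 18.1% of the 14672 genes with an H3K27ac peak, and the 2 of 9 higher in non-CINs beside 18% of them. In H3K27me3, *Cux1* and *Tle4* were more widely covered in CINs (2 of 9, with 7.34% of 8941 genes) and *Bcl11b* in non-CINs (1 of 9, with 11.1%). By the strongest H3K27ac peak, *Bcl11b*, *Cux2* and *Foxp2* ranked higher in CINs (3 of 9, with 20.8% of genes) and *Fezf2*, *Rorb*, *Sox5* and *Pou3f2* ranked higher in non-CINs (4 of 9, with 15.6%).

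**Figure D1:**
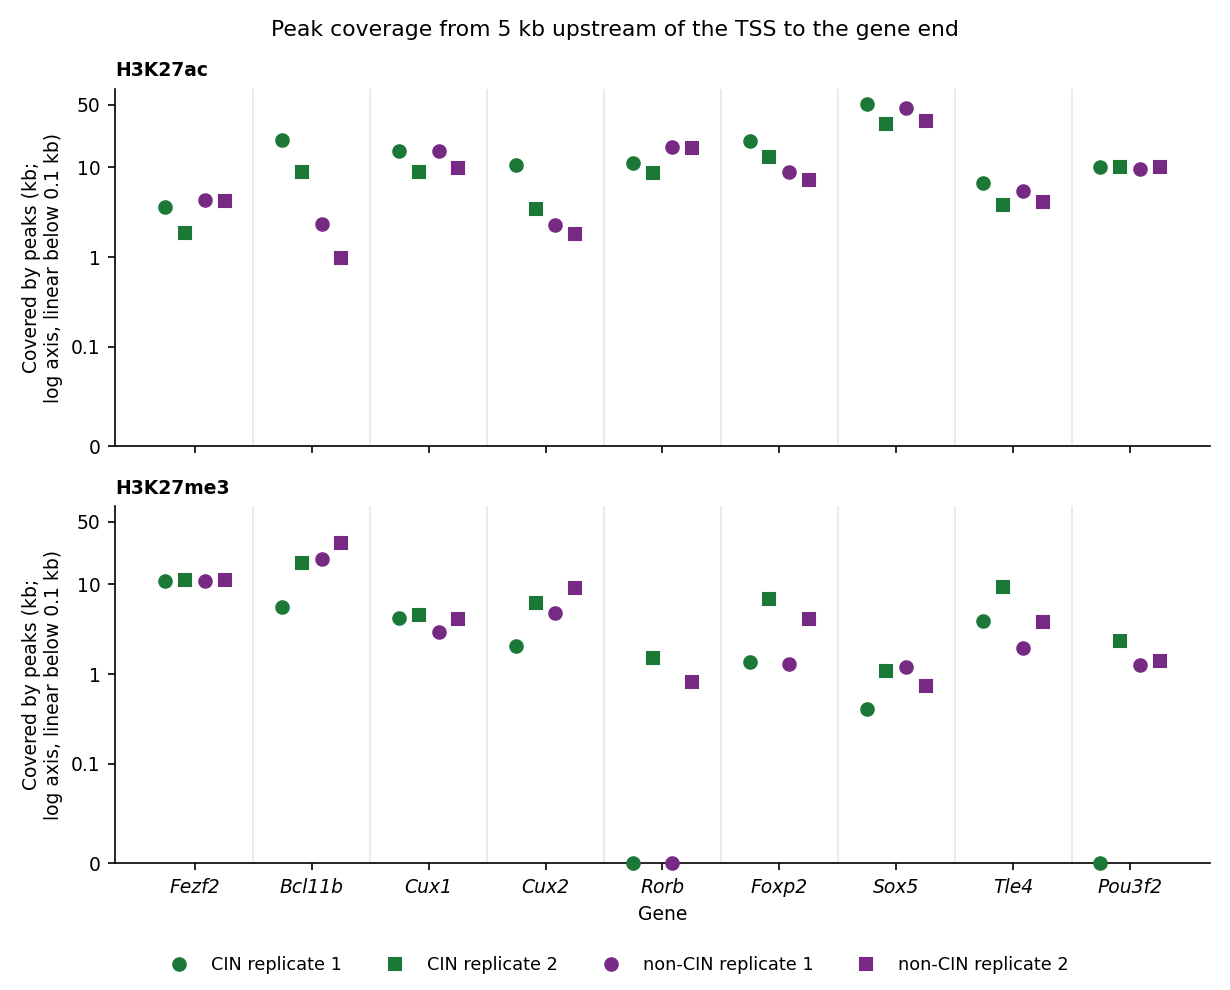
Base pairs covered by H3K27ac (top) and H3K27me3 (bottom) peaks in the window of each gene, in kb on a log axis that is linear below 0.1 kb. Each point is 1 list, with CINs in green, non-CINs in purple, circles for replicate 1 and squares for replicate 2. The CIN points of *Bcl11b*, *Cux2* and *Foxp2* lie above the non-CIN points for H3K27ac, those of *Fezf2* and *Rorb* lie below, and *Rorb* has no H3K27me3 peak in either replicate 1 list.

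Within replicate numbers, where each CIN list is set against the non-CIN list of its own number, *Pou3f2* joined the genes with more H3K27ac in CINs (4 of 9, with 29.8% of all genes) and *Cux1* those with more in non-CINs (3 of 9, with 29.2%). For H3K27me3, *Foxp2* joined the genes with more in CINs (3 of 9, with 16.7%) and *Cux2* those with more in non-CINs (2 of 9, with 25.4%). For *Pou3f2* and *Cux1* these H3K27ac differences were small, with coverage in CINs 1.02 and 0.958 times that in non-CINs.

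As a share of the window, a scale per length, *Pou3f2* came first in both populations, with H3K27ac over 91.4% to 96.2% of its window. *Fezf2* followed with 16.7% and 32.5% in the CIN lists, against 37.9% and 39.1% in the non-CIN lists. *Pou3f2* and *Fezf2* also had the shortest windows, of 10.6 and 11.1 kb, and the part of gene length in this order was not tested. In CINs *Bcl11b*, with 9.05% and 20.5%, overlapped with *Fezf2*, and the other 6 genes lay between 1.72% and 6.09% and overlapped with their neighbours in the order. In non-CINs *Rorb* came next with 8.91% and 9.18%, clear of *Sox5* (3.47% and 4.79%), *Cux1* (3.00% and 4.71%) and *Tle4* (2.66% and 3.50%), which overlapped in turn. *Bcl11b* (0.999% and 2.37%), *Foxp2* (1.34% and 1.62%) and *Cux2* (0.907% and 1.14%) came last in non-CINs. *Bcl11b* thus ranked next to *Fezf2* in CINs, and in non-CINs it overlapped with the genes in the last places.

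*Bcl11b*, a zinc finger transcription factor of subcerebral projection neurons that is also made by GABAergic neurons, showed the largest ratio of H3K27ac coverage among the 9. It had 20 and 9 H3K27ac peaks in CIN replicates 1 and 2, and 4 and 3 in the non-CIN replicates. These covered 20159 and 8883 bp in the CIN lists, against 2325 and 981 bp in the non-CIN lists, so that the lower CIN list lay far above both non-CIN lists. The mean was 8.78 times higher in CINs, and the ratio was 8.67 in replicate 1 and 9.06 in replicate 2, where the median ratio over all genes was 1.004. The size of this ratio moved with the threshold. With −log10 *q* of at least 4, coverage was 14733 and 8883 bp in the CIN lists, against 658 and 239 bp in the non-CIN lists. The strongest peak ranked at the 89.5 and 86.6 percentiles in CINs and at 67.3 and 33.0 in non-CINs.

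The strongest stretch of *Bcl11b* shared by both CIN lists was 2162 bp of intron 2, at chr12:107969522-107971683, 33.0 kb into the gene. It held the highest peak of *Bcl11b* in both CIN lists. Non-CIN replicate 1 had no H3K27ac peak there, and replicate 2 had a peak at the 5.25 percentile over 347 bp. The strongest stretch shared by the non-CIN lists was 136 bp of intron 3, at chr12:107952282-107952417, and was marked in CINs as well. Of 8 H3K27ac stretches shared by the CIN replicates, 4 overlapped no non-CIN peak of either replicate, whereas both of the 2 stretches shared by the non-CIN replicates overlapped a CIN peak. The same shares over the whole genome were not counted, so whether these are unusual is not known.

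At the *Bcl11b* promoter H3K27ac separated the populations and H3K27me3 did not. H3K27ac lay within 1 kb upstream of the TSS in both CIN lists and in neither non-CIN list, a combination met at 0.784% of genes and at none of the other 8 layer genes. H3K27me3 lay there in CIN replicate 2 and in both non-CIN lists, and not in CIN replicate 1. The CIN-only region at chr12:108003857-108004082, whose sequence is given above, is 226 bp long, begins 255 bp from the TSS and ranked at the 75.4 and 28.4 percentiles. H3K27me3 peaks overlapped the same bases in each non-CIN replicate and in neither CIN replicate.

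H3K27me3 covered more of *Bcl11b* in non-CINs, with 5575 and 17189 bp in the CIN lists, against 19133 and 29234 bp in the non-CIN lists. The upper CIN value and the lower non-CIN value lay close together, and the CIN replicates differed more from each other than CIN replicate 2 did from non-CIN replicate 1. Both non-CIN lists shared 17 H3K27me3 stretches across the gene and both CIN lists 4. Peaks of the H3K27ac and H3K27me3 lists, matched by population and replicate number, also overlapped in CINs, over 12.2% and 30.5% of the acetylated bases, and over 26.7% in non-CIN replicate 1 and 0% in non-CIN replicate 2.

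**Figure D2:**
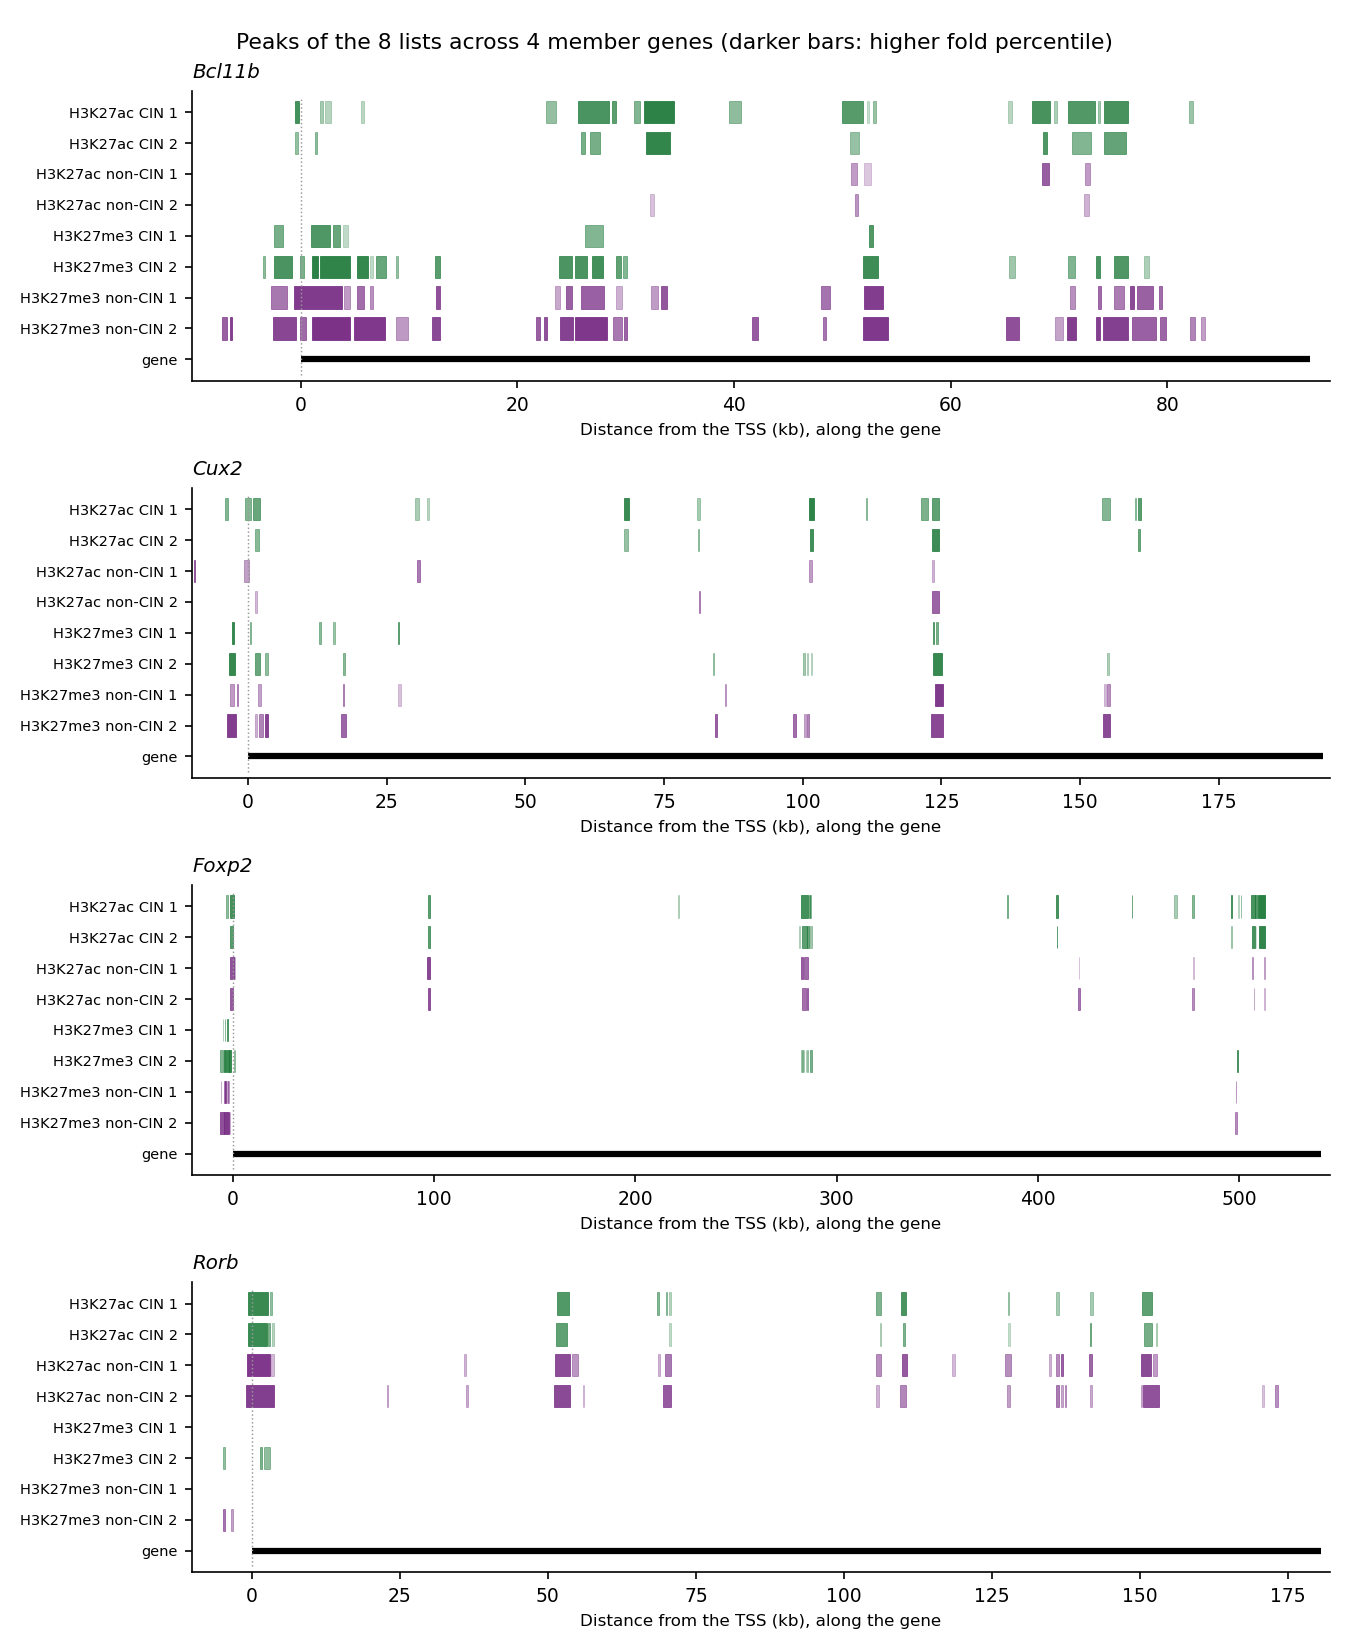
Peaks of the 8 lists along *Bcl11b*, *Cux2*, *Foxp2* and *Rorb*, drawn against distance from the TSS in kb, with CINs in green, non-CINs in purple, the list named at the left and darker bars for a higher fold percentile within the list. The black bar is the gene. In *Bcl11b* the H3K27ac peaks of the CIN lists, among them those near 33.0 kb, have few counterparts in non-CINs, and in *Rorb* all 4 lists carry the broad peak at the start.

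*Foxp2* encodes a forkhead factor of deep-layer neurons. Its H3K27ac peaks numbered 18 and 11 in the CIN lists, against 9 and 8 in the non-CIN lists, and covered 19851 and 13067 bp against 8843 and 7286 bp. The 2 populations did not overlap, and the mean was 2.04 times higher in CINs, with 2.24 in replicate 1 and 1.79 in replicate 2. The strongest peak ranked at 92.3 and 87.6 in the CIN lists, against 82.4 and 75.7 in the non-CIN lists.

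These strongest *Foxp2* peaks lay in different parts of the gene. In both CIN lists it was a stretch of 2987 bp over exon 14, at chr6:15411046-15414032, 511 kb from the TSS, where the non-CIN lists held peaks of 512 and 437 bp at the 16.6 and 5.35 percentiles. In both non-CIN lists it was a stretch of 926 bp in intron 2, at chr6:14998478-14999403, 97.6 kb from the TSS, which CINs also carried, at 63.6 and 63.5. Intron 5 held a CIN-only region at chr6:15310769-15311039, at the 73.5 and 82.3 percentiles, and a non-CIN-only region at chr6:15321549-15322015, at 11.9 and 53.6. The former had the highest lower percentile of the 22 one-population regions. The outermost *Foxp2* promoter and the start sites 283 kb and 284 kb downstream were acetylated in all 4 lists. H3K27me3 over *Foxp2* was 1374 and 6956 bp in the CIN lists, against 1284 and 4150 bp in the non-CIN lists, and its spread between replicates was larger than that between populations.

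*Cux2*, a homeodomain factor of the upper layers, carried 14 and 6 H3K27ac peaks in CINs and 4 and 3 in non-CINs. They covered 10755 and 3428 bp in the CIN lists, against 2266 and 1802 bp in the non-CIN lists. The CIN replicates differed from each other more than CIN replicate 2 did from the non-CINs. The mean ratio was 3.49, made up of 4.75 in replicate 1 and 1.90 in replicate 2. The strongest peak ranked at 88.9 and 80.0 in the CIN lists, against 49.1 and 63.5 in the non-CIN lists. In both CIN lists a peak at chr5:121948325-121948738 in intron 2 ranked at 88.9 and 76.7, while in non-CINs it was at 27.1 in replicate 1 and not called in replicate 2. H3K27me3 covered 2061 and 6276 bp in the CIN lists, against 4822 and 9188 bp in the non-CIN lists, higher in non-CINs within both replicate numbers but with overlapping lists. Under H3K27me3 peaks of the same population and replicate number lay 7.54% and 59.5% of the acetylated bases in CINs. In non-CINs the shares were 0% and 88.9%. The first coding start site of *Cux2* was acetylated in the replicate 1 list of each population and in neither replicate 2 list.

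*Cux1*, the paralog of *Cux2*, did not share this difference. Its H3K27ac peaks numbered 22 and 16 in the CIN lists, against 28 and 17 in the non-CIN lists, and covered 15076 and 8886 bp against 15285 and 9738 bp, with a ratio of 0.958. Its strongest CIN stretch was the promoter, at chr5:136566114-136567581, at 84.2 and 76.7 in the CIN lists, against 85.4 and 70.0 in the non-CIN lists. An H3K27me3 domain lay just upstream of it in all 4 lists and ranked at 95.9 to 97.7. H3K27me3 covered 4178 and 4562 bp of the whole *Cux1* window in the CIN lists, against 2929 and 4072 bp for non-CINs. These lists did not overlap, but CIN replicate 1 had 2 peaks in the window where the other lists had 1, and the difference in means was smaller than the spread between the non-CIN replicates. No base of *Cux1* lay under peaks of both marks when the lists were matched by population and replicate number.

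*Rorb*, the nuclear receptor of layer IV, was the clearest of the genes with more H3K27ac in non-CINs. It had 12 and 11 peaks in CINs and 17 in each non-CIN list, and they covered 11295 and 8679 bp in the CIN lists, against 17039 and 16530 bp in the non-CIN lists. The non-CIN replicates lay close together and above both CIN lists, and the mean was 1.68 times higher in non-CINs. The strongest peak was the promoter in all 4 lists, at 82.5 and 81.5 in the CIN lists, against 91.8 and 87.1 in the non-CIN lists. Both CIN lists shared the stretch chr19:19108599-19111824. All 8 shared stretches of CINs and all 9 of non-CINs overlapped a peak of the other population, a count that was not made for the whole genome. H3K27me3 was called in the replicate 2 lists only, over 1502 bp in CINs and 807 bp in non-CINs.

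*Fezf2*, a zinc finger factor that specifies subcerebral projection neurons, was covered by H3K27me3 over nearly its whole window in both populations. The mark covered 10889 and 11096 bp in the CIN lists, against 10880 and 11096 bp in the non-CIN lists, of a window of 11096 bp, and ranked at 95.5 to 96.8. H3K27ac covered 3607 and 1857 bp in the CIN lists, against 4337 and 4203 bp in the non-CIN lists, all of it (100%) under an H3K27me3 peak of the list with the same population and replicate number, which is a separate ChIP sample. The non-CIN mean was 1.56 times higher, and the strongest H3K27ac peak ranked at 58.3 and 54.4 in the CIN lists, against 64.9 and 74.5 in the non-CIN lists, the lowest of the 9 genes in CINs. With peaks of −log10 *q* of at least 4 alone, *Fezf2* did not separate the populations, since coverage was 3607 and 735 bp in the CIN lists, against 3514 and 4203 bp in the non-CIN lists. The outermost TSS carried H3K27me3 in all 4 lists, as did 8.68% of genes, and no H3K27ac. The start site 2.23 kb further in carried H3K27ac in the 4 lists of that mark and H3K27me3 in the 4 of the other.

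*Sox5*, an SRY-box factor of deep-layer neurons and the longest of the genes, had 65 and 36 H3K27ac peaks in CINs and 56 and 29 in non-CINs, over 51670 and 30739 bp and 45934 and 33245 bp. The replicates differed far more than the populations. Both populations shared the strongest stretch, in intron 3 at chr6:144055373-144058672, at 97.2 and 99.2 in the CIN lists, against 99.5 and 99.9 in the non-CIN lists. The annotated gene begins 572 kb before the first TSS of its basic coding transcripts, and coverage from that TSS on was 33320 and 21713 bp in the CIN lists, against 31832 and 24678 bp in the non-CIN lists, which again overlapped. H3K27me3 was sparse, at 410 to 1188 bp in the 4 lists, and with the shorter gene model it was 0 in all of them.

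*Pou3f2*, a POU factor of the upper layers, was acetylated over nearly its whole window. Coverage was 10116 and 10181 bp in the CIN lists, against 9680 and 10146 bp in the non-CIN lists. The strongest peak ranked at 94.2 and 96.7 in the CIN lists, against 98.8 and 99.6 in the non-CIN lists, and although the ranks did not overlap, all 4 were high. H3K27me3 was not called in CIN replicate 1 and covered 2322 bp in CIN replicate 2 and 1252 and 1383 bp in non-CINs.

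*Tle4* encodes a Groucho-family corepressor of corticothalamic neurons. H3K27ac covered 6711 and 3817 bp in the CIN lists, against 5416 and 4116 bp in the non-CIN lists. Its strongest peak ranked at 90.3 and 95.6 for CINs and at 97.7 and 94.8 for non-CINs, so that neither measure separated the populations. With peaks of −log10 *q* of at least 4 alone, *Tle4* was more widely acetylated in non-CINs, with 2584 and 3127 bp in the CIN lists, against 4875 and 4116 bp for non-CINs. H3K27me3 coverage separated them, with 3890 and 9289 bp in the CIN lists, against 1933 and 3811 bp in the non-CIN lists. The mean was 2.29 times higher in CINs, but the lower CIN and the upper non-CIN value lay close together. With −log10 *q* of at least 4, H3K27me3 covered 3337 and 4817 bp in the CIN lists, against 992 and 2353 bp for non-CINs. The strongest H3K27me3 peak did not separate them, at 89.8 and 79.6 in the CIN lists, against 85.1 and 75.2 in the non-CIN lists. Among 4 CIN-only H3K27me3 regions within 100 kb of the layer genes, 3 were at *Tle4* and the remaining one was at *Fezf2*. The longest, 1406 bp at chr19:14594482-14595887 over exon 3, ranked at 72.4 and 78.4 and overlapped H3K27ac peaks in both CIN lists and in non-CIN replicate 1. The 6 non-CIN-only H3K27me3 regions fell to 6 different genes, *Fezf2*, *Bcl11b*, *Cux1*, *Foxp2*, *Sox5* and *Tle4*. Those of *Fezf2*, *Cux1* and *Sox5* lay 63095, 91427 and 81876 bp upstream of the gene, and that of *Tle4* 25866 bp beyond the gene end. The share of all genes with an H3K27me3 region of either kind was not counted. Per Mb of gene and flanks there were 0.943 CIN-only H3K27me3 regions at the layer genes and 0.309 at all genes, and 1.41 and 0.582 non-CIN-only ones, out of 710 and 1286 in the genome.

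**Figure D3:**
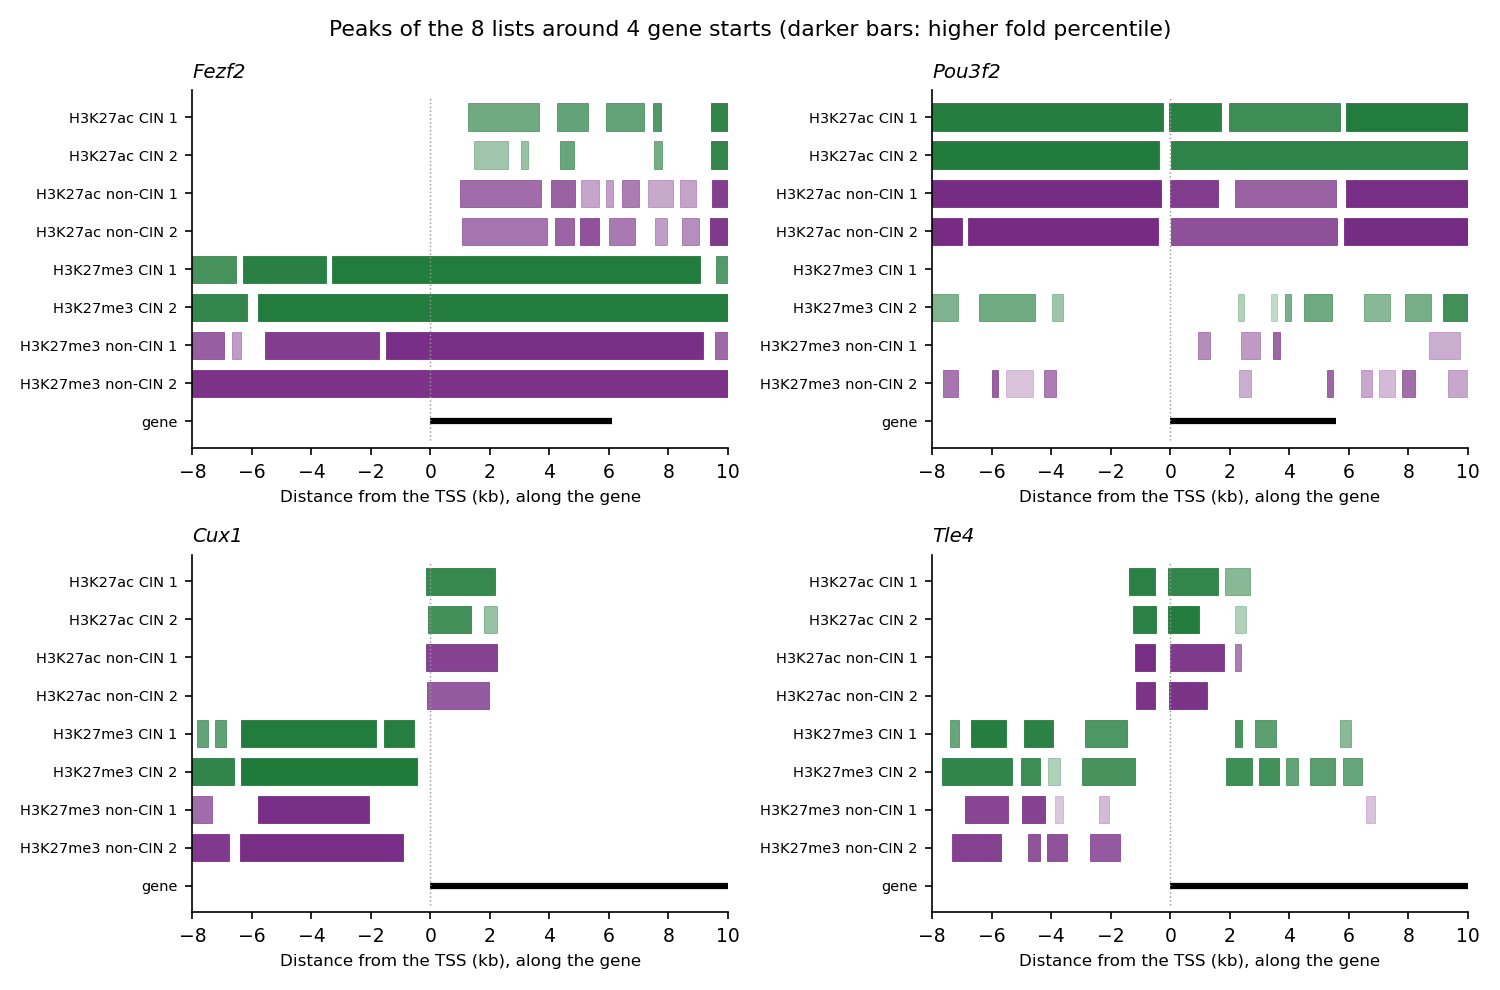
Peaks of the 8 lists from 8 kb before to 10 kb after the outermost TSS of *Fezf2*, *Pou3f2*, *Cux1* and *Tle4*, against distance from the TSS in kb, with CINs in green, non-CINs in purple and darker bars for a higher fold percentile. H3K27me3 runs through the whole *Fezf2* gene, H3K27ac runs through *Pou3f2*, and at *Cux1* the H3K27me3 domain stops before the H3K27ac peak at the start. Inside *Tle4* the H3K27me3 peaks between 2 and 5 kb are drawn in the CIN lists only.

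At the outermost TSS, 5 of the 9 genes, *Cux1*, *Rorb*, *Foxp2*, *Tle4* and *Pou3f2*, were acetylated in all 4 lists, beside 42.2% of all genes. At the outermost *Sox5* TSS H3K27ac was called in both CIN lists but not in both non-CIN lists. Of its 5 coding start sites, 4 lay together, 572.4 to 572.5 kb further in, and were acetylated in all 4 lists. The remaining start site, 835 kb further in, was acetylated in none of them. None of the 9 carried H3K27ac at the outermost TSS in both non-CIN lists and no CIN list, a class that held 0.406% of genes.

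**Figure D4:**
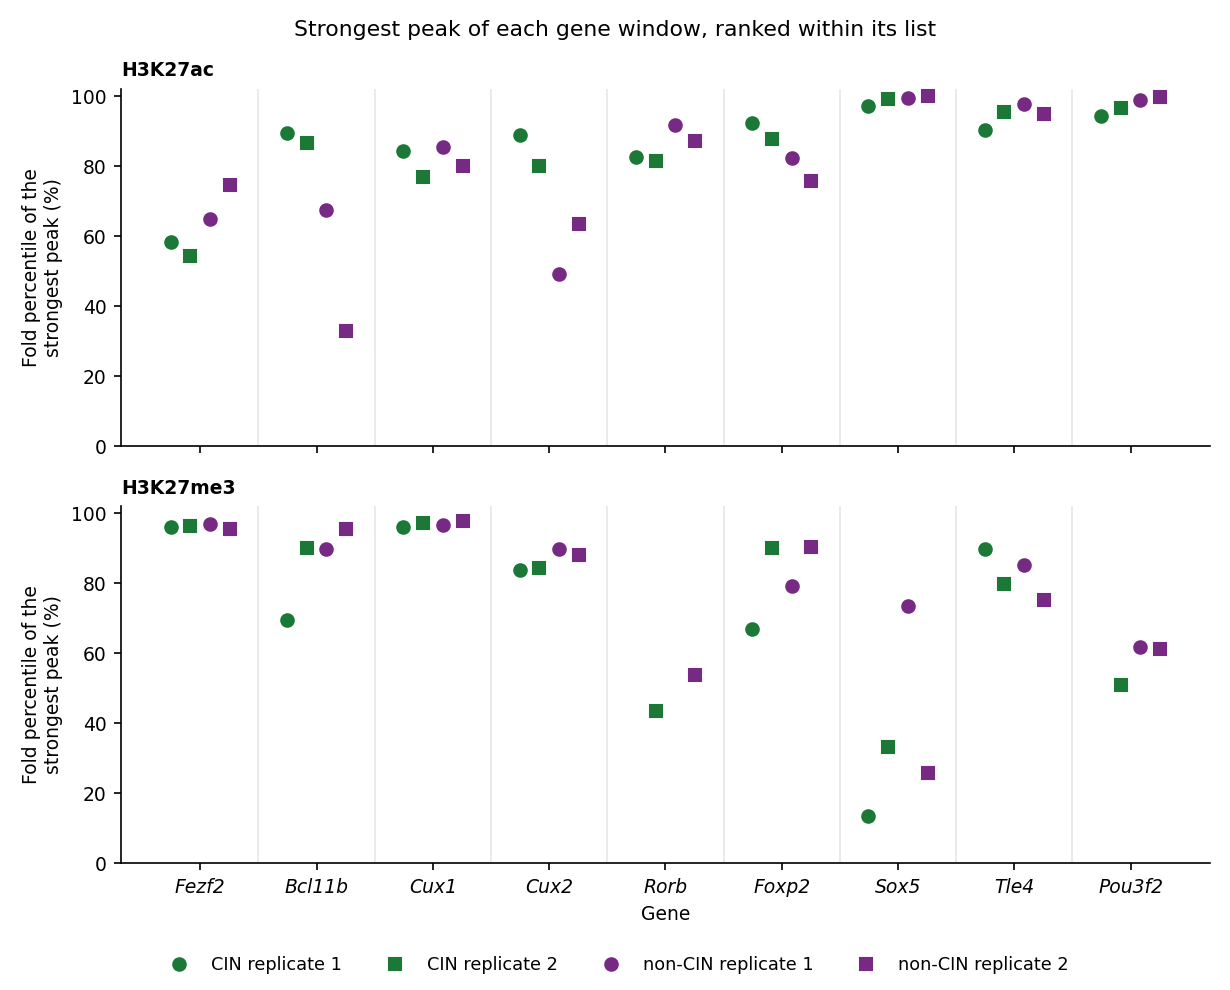
Fold percentile, within its own list, of the strongest H3K27ac peak (top) and the strongest H3K27me3 peak (bottom) in the window of each gene. Each point is 1 list, coloured and shaped as in the plot of coverage, and a missing point means that the list had no peak there. *Sox5*, *Tle4* and *Pou3f2* lie above 90 for H3K27ac in all 4 lists, and *Fezf2* and *Cux1* lie above 95 for H3K27me3.

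Within 100 kb of the 9 genes there were 16 CIN-only H3K27ac regions, of 4182 in the genome, and 6 non-CIN-only regions, of 2775. The CIN-only regions belonged to *Cux1* and *Cux2* with 4 each, *Bcl11b* and *Sox5* with 3 each and *Foxp2* with 2, and the non-CIN-only regions to *Cux1* with 4 and *Rorb* and *Foxp2* with 1 each. Thus 5 of the 9 genes had a CIN-only region, where 24.9% of all genes did, and 3 of the 9 a non-CIN-only region, where 24% did. Long genes have more room for a region, and the windows of 7 of the 9 genes were longer than those of at least 87.7% of all genes. Per Mb of gene and flanks there were 3.77 CIN-only regions at the layer genes and 1.72 at all genes, and 1.41 and 1.34 non-CIN-only regions. *Fezf2*, *Tle4* and *Pou3f2* had neither kind under the rule used here. With −log10 *q* of at least 4, *Pou3f2* had 2 CIN-only regions and *Tle4* had 1 non-CIN-only region, and without a merging gap or without the replicate block *Fezf2* had 1 non-CIN-only region. The counts moved with the rule, to 8 CIN-only regions with a reciprocal overlap of 50% between replicates, to 4 CIN-only and 2 non-CIN-only regions within 100 kb of the TSS, and to 34 to 64 and 32 to 46 in single replicates. With the strongest peaks alone, *Cux1* and *Foxp2* had 0 non-CIN-only regions, *Rorb* had 3 and *Tle4* had 1, and with −log10 *q* of at least 4 *Rorb* and *Sox5* had 2 each.

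Under the rule used here, the CIN-only regions also ranked higher in their lists, with a lower percentile of 14.7 to 73.5 over the 16 regions, than the non-CIN-only ones, with 0.192 to 11.9 over the 6. The ranks of all one-population regions of the genome were not taken, so whether this difference is particular to the layer genes is not known. At *Bcl11b* the leading region, chr12:107975929-107976885 in intron 2, ranked at 72.2 and 46.1, and its neighbour in the same intron lay within the same merged peak of CIN replicate 1. At *Cux1* the leading CIN-only region was 1673 bp of intron 14, chr5:136296489-136298161, at 71.1 and 55.3, and the nearest TSS to it and to the other CIN-only regions of *Cux1* was that of *Sh2b2*. At *Cux2* it was chr5:121889358-121889575 in intron 5, at 62.8 and 53.4, with the TSS of *Pheta1* nearest. The *Cux2* regions 50768 and 97980 bp beyond the gene end had lower percentiles of 18.2 and 14.7, with the TSS of *Sh2b3* and *Atxn2* nearest. At *Sox5* the leading region was chr6:144343483-144343683, inside the annotated gene but before its coding start sites, at 50.04 and 38.07. In contrast, 3 of the 4 non-CIN-only regions of *Cux1* ranked at 15.1 or lower in both lists. The remaining one, chr5:136226261-136226561, lay 21573 bp beyond the gene end and nearer to the TSS of *Sh2b2*, at 62.3 and 9.76. The *Rorb* region, chr19:18880993-18881413, lay 49191 bp beyond the gene end, at 30.4 and 9.68. No H3K27me3 peak overlapped any one-population H3K27ac region other than the 3 at *Bcl11b*.

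**Figure D5:**
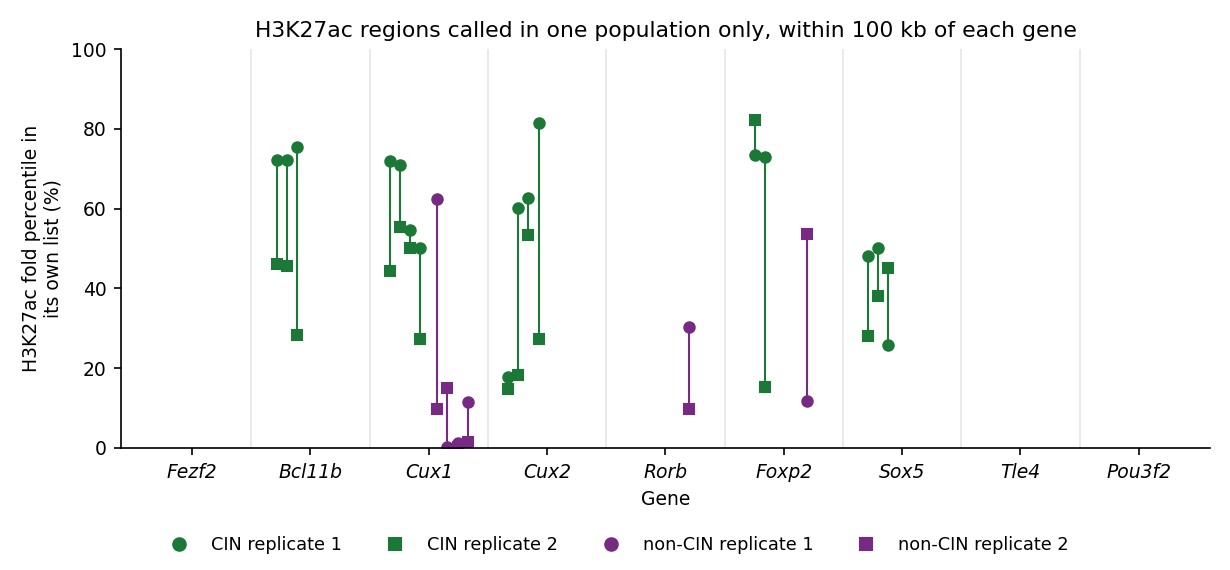
H3K27ac regions called in one population only within 100 kb of each gene, with the fold percentile in the replicate 1 list (circle) and the replicate 2 list (square) joined by a line, CIN-only in green and non-CIN-only in purple. The plot shows 16 CIN-only regions at 5 genes and 6 non-CIN-only regions at 3 genes, and no region at *Fezf2*, *Tle4* or *Pou3f2* under the rule used here.

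To place the 9 genes among others of the same cells, 25 further genes of cortical layers or projection neurons were measured in the same way. H3K27ac was called at 22 of them. It was higher in CINs at 3, *Lmo3*, *Cplx3* and *Mef2c*, and in non-CINs at 7, *Emx1*, *Emx2*, *Nfia*, *Unc5d*, *Dkk3*, *Ccn2* and *Lhx2*, beside the 18.1% and 18% of the genes with an H3K27ac peak given above. *Mef2c*, a MADS-box factor of cortical neurons, had 12482 and 12363 bp in the CIN lists, against 10165 and 9184 bp in the non-CIN lists. *Dkk3*, a secreted protein, had 7719 and 5054 bp in the CIN lists, against 12061 and 12454 bp in the non-CIN lists. H3K27me3 was higher in CINs at 6, *Emx1*, *Neurod6*, *Bhlhe22*, *Otx1*, *Nfib* and *Ccn2*, and in non-CINs at *Pou3f3* alone, of 23 with a peak of that mark, beside 7.34% and 11.1% of the genes with one. *Neurod6*, a basic helix-loop-helix factor of projection neurons, was covered over 1805 and 3171 bp in CINs and had no H3K27me3 peak in either non-CIN list.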

How the data were processed

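H3K27ac and H3K27me3 native ChIP-seq (chromatin cut with micrococcal nuclease, without cross-linking) was analysed in CINs and non-CINs with 2 replicates each, from 1 peak list per sample. Reads were mapped by the authors with BWA *mem* 0.7.15 to the mm10 genome, kept at a mapping quality of at least 30, and turned into broad peaks for each replicate against its own input with MACS2 at a *q* cutoff of 0.01, with 200 bp extension, no model and no local background (the submitters' processing notes name MACS2 2.2.7). The score column was deposited as the authors' peak caller scaled it. The fold column, as deposited, sets ChIP signal over input signal at each peak as a ratio. The −log10 *p* and −log10 *q* values were deposited likewise. No list gives reads, so depth and its precision are unknown.

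Gene spans came from GENCODE vM21 (GRCm38, which is mm10), promoters spanned 1 kb before and 100 bp after a TSS, and peaks up to 500 bp apart were merged for one-population regions. Introns and exons are numbered in the longest overlapping basic transcript. Coverage was set against its population's lists without a replicate block, and one-population regions with it. The replicate number marks an independent experiment in the series' design, and lists of the same number deviated together (Pearson *r* of the replicate difference between populations, across genes, 0.420 over 12456 genes for H3K27ac and 0.616 over 4621 for H3K27me3). The replicates are pools, so spread between them holds biological and technical parts.

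The genes, the other lists and the rules were chosen with earlier results of these data known. Some genes of the other lists are not reported here. All 9 layer genes are named, with the one-population H3K27ac region of highest lower percentile for each that had one. Alternatives were −log10 *q* of at least 4, the strongest 40000 (H3K27ac) or 30000 (H3K27me3) peaks, a 2 kb upstream reach, other merging gaps, reciprocal overlap of 50%, 100 kb around the TSS, no replicate block and single replicates. A replicate block for coverage and a window from the first coding TSS were added after seeing the data. Python 3.11.15 with NumPy 2.4.6 and matplotlib 3.10.9 was used. On simulated peaks, 244 of 244 interval operations equalled those of bedtools 2.31.1 or a base-by-base count, and all 20 and 12 planted regions were recovered.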

Additional observations from a re-analysis of the deposited data

How the results depend on the processing

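Of the alternative values of the 8 main counts, 46 stayed within 1.5 times the main count and 16 did not, and no gene counted for one population in the main coverage or percentile counts was counted for the other under an alternative. Genes whose lists overlapped did change sides between alternatives, *Sox5* and *Tle4* in H3K27ac coverage, *Sox5* and *Pou3f2* in H3K27me3 coverage and *Tle4* in the strongest H3K27ac peak. Among the 46, the percentile counts for other window starts did not move, since each window held the same strongest peaks, and with percentiles ranked anew among the retained peaks *Cux1* joined the 4 genes higher in non-CINs. Limited to the strongest peaks, H3K27ac was higher in non-CINs at 1 gene, *Rorb*. With −log10 *q* of at least 4, H3K27me3 was higher in non-CINs at 2 genes, *Bcl11b* and *Pou3f2*, and the H3K27ac count for non-CINs stayed at 2 with *Tle4* in place of *Fezf2*. Requiring a reciprocal overlap of 50% left 8 CIN-only regions, and counting within 100 kb of the TSS left 4 CIN-only and 2 non-CIN-only regions, since that reach leaves out most of the long genes. The other causes were not tested.

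With the replicate block, H3K27me3 was higher in non-CINs at 2 genes, and no other coverage count moved by over 1.5 times. Without the block the regions numbered 17 (CIN-only) and 9 (non-CIN-only).

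With 1 replicate left out, 1 list stood against 1, so that every gene of unequal value fell on a side and the counts could not fall. H3K27ac coverage was higher in CINs at 4 to 6 genes and in non-CINs at 3 to 5. H3K27me3 coverage was higher in CINs at 4 to 6 and in non-CINs at 2 to 4, and the strongest H3K27ac peak at 3 to 4 and 5 to 6. Single replicates gave 34 to 64 CIN-only and 32 to 46 non-CIN-only regions.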

Other observations

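The paralogs of the layer genes were measured in the same windows. Among 13, H3K27ac coverage was higher in both CIN lists at *Bcl11a*, *Tle2* and *Pou3f4* and in both non-CIN lists at *Foxp1* and *Tle3*, 3 and 2 of the 11 with a peak, beside 18.1% and 18% of all genes with one. *Bcl11a*, the paralog of *Bcl11b*, had 18663 and 11336 bp in the CIN lists, against 7806 and 6680 bp in the non-CIN lists, without overlap. *Foxp1*, the paralog of *Foxp2*, had 12232 and 7322 bp in the CIN lists, against 16745 and 12719 bp in the non-CIN lists, the direction opposite to that of *Foxp2*. *Sox6*, the closest relative of *Sox5* in the list, had 66791 and 50552 bp in the CIN lists, against 61562 and 57580 bp in the non-CIN lists, which overlapped. *Fezf1*, the paralog of *Fezf2*, had no H3K27ac peak in any list and H3K27me3 over 8319 bp in all 4, at percentiles of 99.6 to 99.8. *Pou3f1* also had no H3K27ac peak, whereas *Pou3f3* was covered over 11577 to 11965 bp, near its whole length as for *Pou3f2*.

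The genes whose pattern was most like that of a layer gene were found from the ranks, within each of the 8 lists, of the share of the window covered. The mean difference over the 8 lists was 1.37 rank points between *Fezf2* and *Nkx2-2*, 2.63 between *Bcl11b* and *Sema6c*, and 1.54 between *Cux1* and *Vti1a*. It was 2.61 between *Cux2* and *Clmp*, 1.06 between *Rorb* and *Bcl2*, and 1.79 between *Foxp2* and *Grip1*. It was 2.02 between *Sox5* and *Rad51b*, 1.86 between *Tle4* and *Dgkg*, and 1.16 between *Pou3f2* and *Sox9*.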
